A study of Homo sapiens with 18 samples.

Results

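The comparison described here is the PCAF/GCN5 compound against DMSO in non-induced H1299 cells, which asks what this compound does to RNA levels apart from the tagged p53. Its members are 6 of the 18 libraries of the series, taken by their labels: 3 from cells given AceTAGPCAFGCN5-4 and 3 from cells given DMSO, both for 24 h. H1299 cells come from a human lung tumour and make no p53 protein of their own. The study's line carries a doxycycline-switched gene for wild-type p53 joined to an HA epitope and to FKBP12F36V, and the AceTAG compounds are built to bring a lysine acetyltransferase to a protein with that tag. The series holds 6 groups of 3 libraries, made of induced and non-induced cells with DMSO, this compound or AceTAGp300CBP-1. The non-induced samples are labelled as H1299 alone, so the labels do not show whether they carry the construct or received doxycycline. Doses are not in the labels, and nothing there says that replicates were separate cultures, so p-values measure only the spread between these libraries.

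PCAF (gene KAT2B) and GCN5 (gene KAT2A) are closely related lysine acetyltransferases that work as the catalytic subunits of the SAGA and ATAC coactivator complexes, where they acetylate histone tails at active promoters. They also acetylate other proteins, p53 among them, and acetylation of p53 is known to favour transcription of its target genes. The comparison without induction is the one meant to show what else the compound does.

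Total counts were 26366117, 25632318 and 9056382 in the DMSO libraries and 25573666, 26620841 and 24337812 in the compound libraries. The third DMSO library was therefore the shallowest. The first compound library stood apart from the other 5: it scored 9.27 on a first principal component that held 60.9% of the variance, where the others scored -2.91 to -0.66, and its mitochondrially encoded share of counts was 1.32% against 1.69% to 2.26%. The line's markers VIM, KRT8 and KRT18 summed to 3600 to 4230 CPM (read counts scaled to a common library total) over all 6 libraries. The immune cell genes PTPRC and CD3E, the endothelial gene CDH5 and the lung epithelial genes SFTPC and SCGB1A1 were at 0 in all 6. Other members of their lists had reads. The immune list summed to 0.188 to 0.546 CPM, the endothelial to 0.195 to 0.663 and the lung epithelial to at most 0.0391. Fibroblast markers summed to 1.01 to 1.74 CPM. Neuroendocrine markers summed to 6.67 to 10.4 CPM, with SYP alone at 6.36 to 9.81.

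Very few genes passed the test for the PCAF/GCN5 compound in non-induced cells. Of 15101 genes tested with edgeR, 3 had a Benjamini-Hochberg adjusted p below 0.05 (0.0199% of genes tested), 1 higher (0.00662%) and 2 lower (0.0132%) with the compound. SAP18, a subunit of a histone deacetylase complex and of the exon junction complex, rose to 1.41 times its DMSO level. RPLP2, a protein of the acidic stalk of the ribosome, fell to 0.749 times its DMSO level. BOLA2B, a small protein that binds glutaredoxin in iron handling, had reads in every DMSO library and none in any compound library. The median log2 fold change over all genes tested was 0.002, and 959 genes had an unadjusted p below 0.05 (6.35%), 434 higher (2.87%) and 525 lower (3.48%).

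SAP18 (ENSG00000150459, chr13:21140514-21149084, plus strand, positions as the files give them) measured 59.7, 70.7 and 63.8 CPM with DMSO. With the compound it measured 86.8, 94.3 and 96.2 CPM. Every compound library lay above every DMSO library, with means of 92.4 ± 4.94 against 64.8 ± 5.58 CPM (SD, n = 3 libraries each). The log2 fold change was 0.50 ± 0.07 (SE; 95% interval 0.35 to 0.65; adjusted p = 0.0175). In the other groups SAP18 was 53.3 to 70.3 CPM with the p300/CBP compound without induction, a range that takes in the DMSO level. In induced cells it was 85.8 to 105.7 CPM with DMSO and 89.4 to 106.1 CPM with the PCAF/GCN5 compound, which overlap. The difference of the compound's effect between states was 0.50 ± 0.13 and did not pass (adjusted p = 0.397).

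RPLP2 (ENSG00000177600, chr11:809965-812880, plus strand, with the small nucleolar RNA SNORA52 inside it on the same strand) measured 371.8, 392 and 395 CPM with DMSO. With the compound it measured 296.8, 309.4 and 270.5 CPM. Here every compound library lay below every DMSO library, and the means were 292.2 ± 19.8 against 386.3 ± 12.6 CPM (SD, n = 3 each). RPLP2 fell by 0.42 ± 0.06 on the log2 scale (95% interval -0.54 to -0.30; adjusted p = 0.0128). Its stalk partners were not called: RPLP1 was at 0.08 ± 0.10 and RPLP0 at -0.035 ± 0.05 on that scale (adjusted p of 0.906 and 0.924). In induced cells RPLP2 was 332.5, 279.3 and 461.2 CPM with DMSO and 317.2, 315.4 and 325.4 CPM with the compound. Those DMSO libraries spanned the whole range of the compound libraries.

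**Figure D1:**
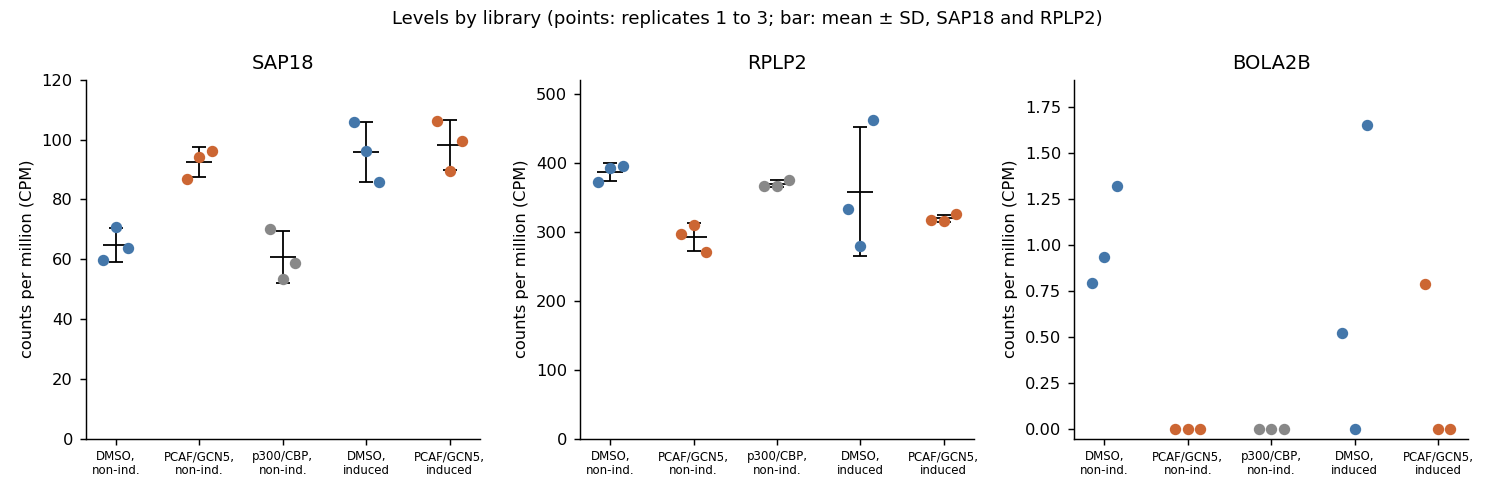
CPM of SAP18, RPLP2 and BOLA2B (y axes) in each of 3 libraries per group (points, x axis), with the mean ± SD for SAP18 and RPLP2. In non-induced cells the PCAF/GCN5 libraries lie at 86.8 to 96.2 CPM for SAP18, above all DMSO libraries, at 270.5 to 309.4 CPM for RPLP2, below them, and at 0 for BOLA2B.

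BOLA2B (ENSG00000169627, chr16:30192932-30194306, minus strand) had 21, 24 and 12 counts in the DMSO libraries and 0 in each compound library. The DMSO mean was 1.02 ± 0.274 CPM (SD, n = 3). Against a floor of 3 counts per compound library this is at least 8.66-fold lower with the compound (adjusted p = 0.0128 in edgeR). The gene has a near copy, BOLA2, on the same chromosome (chr16:29443056-29454964, minus strand, GENCODE 29 on GRCh38), and the first 120 coding bases of both are printed to show that reads cannot tell them apart, with the start codon in capitals.
BOLA2: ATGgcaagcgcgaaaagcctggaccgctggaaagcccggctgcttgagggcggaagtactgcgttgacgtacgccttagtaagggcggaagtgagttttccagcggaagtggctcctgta
BOLA2B: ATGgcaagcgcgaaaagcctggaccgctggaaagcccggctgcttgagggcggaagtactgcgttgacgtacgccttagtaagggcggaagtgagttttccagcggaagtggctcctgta
The 459 coding bases of the GENCODE 29 transcripts on GRCh38 differed at 0 positions, as did the 1012 bases of the whole transcripts. BOLA2 itself was at 0 counts in all 6 libraries. The separately counted gene BOLA2-SMG1P6 had 1, 3 and 0 counts in the DMSO libraries and 5, 2 and 2 in the compound libraries. BOLA2B also overlaps SLX1A on the opposite strand. It was at 0 in 10 of the 18 libraries of the series, among them 1 of the 3 induced DMSO libraries and all 3 non-induced p300/CBP libraries. Whether the 0 counts come from the cells or from how reads were given to the copies was not tested, so this call is uncertain.

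The calls depended on the libraries. In edgeR, leaving out DMSO library 1, 2 or 3 gave 0 called genes each time, leaving out compound library 2 gave 1 (RPLP2) and leaving out compound library 3 gave 0. In the 4 fits with 0 calls 676, 530, 588 and 1305 genes had an unadjusted p below 0.05, and DESeq2 was not run with a library left out. Leaving out compound library 1, the one that stands apart, gave 17 called genes, 9 higher and 8 lower. SAP18, RPLP2 and BOLA2B were among those 17. Across these and all other alternatives the log2 fold change of SAP18 stayed between 0.43 and 0.57 and that of RPLP2 between -0.46 and -0.37. Their adjusted p ran from 1.28e-10 to 0.805 for SAP18 and from 1.28e-10 to 1 for RPLP2.

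Libraries with the same replicate number deviated together in this comparison, but the labels do not say what the number marks. A pairing seen only in the same counts is not established, so the fit with the replicate block is an alternative only. It called 14 genes, 3 higher and 11 lower. SAP18 (adjusted p = 0.000939), RPLP2 (0.00127) and BOLA2B (0.00482) were among them. The others that rose with the block were TMEM59, a Golgi and endosome membrane protein, at 0.36 ± 0.06 and CCNL2, a cyclin that takes part in splicing, at 0.37 ± 0.07. DDRGK1, an adaptor of the UFM1 modifier pathway, fell by 0.38 ± 0.06, MRPL36, a mitochondrial ribosomal protein, by 0.48 ± 0.08 and ERH, a small nuclear protein, by 0.38 ± 0.06. PQBP1, which binds polyglutamine and splicing factors, fell by 0.31 ± 0.06. The remaining 5 genes were MKI67, ASPM, KNSTRN, HMGB2 and CDCA8, all lower. The mitotic list used here holds MKI67 but not ASPM, KNSTRN or CDCA8, so its counts leave these out whatever their function. No gene of the S phase list was called with the block. TMEM59 levels were 103.5, 102.3 and 105.9 CPM with DMSO and 148, 131.5 and 122.9 CPM with the compound. These do not overlap, and without the block its adjusted p was 0.104, against 0.0136 with it. DESeq2, without the block, called 5 genes, which were SAP18, RPLP2, BOLA2B, TMEM59 and DDRGK1. With the block and without compound library 1, which leaves 1 residual degree of freedom, 70 genes were called, 23 higher and 47 lower.

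Below these genes the differences were small, and most of them could be bounded gene by gene. Each interval is a 95% interval for 1 gene, not adjusted over genes, so the counts that follow are not a joint exclusion. The 95% interval of the log2 fold change lay wholly within 1.5-fold either way for 11379 of 15100 genes (75.4%) and within 2-fold for 13330 (88.3%). The bound depended on the level. Of 2446 genes above 100 CPM all lay within 2-fold and 2442 within 1.5-fold. Of 7025 genes between 10 and 100 CPM, 7022 lay within 2-fold and 6987 within 1.5-fold. Between 1 and 10 CPM the interval was within 2-fold for 3523 of 3877 genes but within 1.5-fold for 1950. At or below 1 CPM it was within 2-fold for 339 of 1752 genes and within 1.5-fold for 0, so for these genes a change of 1.5-fold was not excluded in a single case. The median half-width of the interval was a factor of 1.08 above 100 CPM, 1.12 between 10 and 100, 1.35 between 1 and 10 and 1.9 at or below 1. Above 10 CPM no estimate went beyond 1.5-fold. BOLA2B has no interval, because 1 of its groups is at 0.

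**Figure D2:**
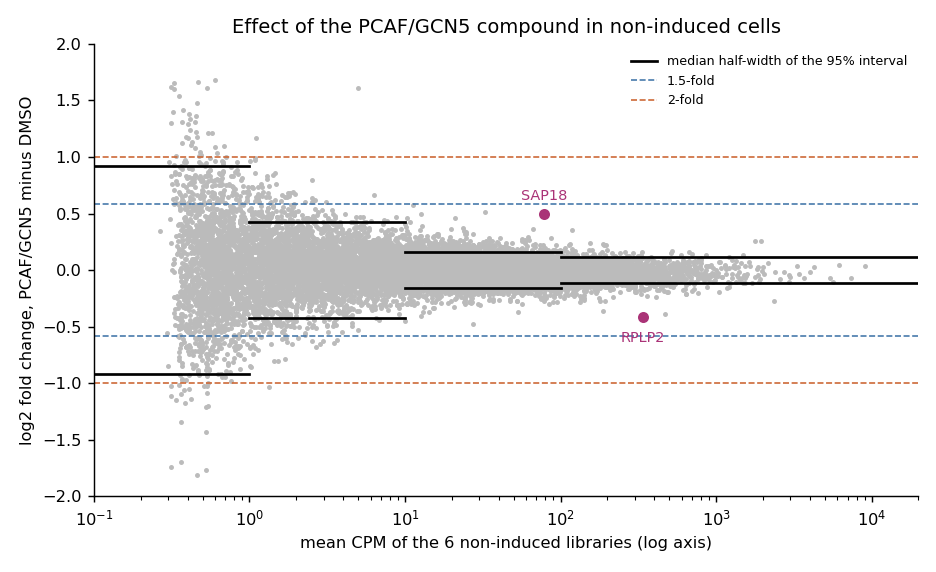
Log2 fold change of the PCAF/GCN5 compound against DMSO in non-induced cells (y axis) against the mean CPM of the 6 libraries (x axis, log scale), 1 point per gene, with BOLA2B left out because its compound group is at 0. Black lines give the median half-width of the 95% interval in 4 ranges of level and dashed lines mark 1.5-fold and 2-fold: above 10 CPM no gene lies beyond 1.5-fold, and SAP18 and RPLP2 are labelled.

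The RNA of the enzymes the compound addresses was not called, and changes of 1.5-fold were excluded. KAT2A was 45.4, 47.2 and 44.7 CPM with DMSO and 42.0, 46.2 and 41.7 CPM with the compound, which overlap (log2 fold change -0.096 ± 0.07, 95% interval -0.24 to 0.044, adjusted p = 0.808). KAT2B was 76.1, 75.7 and 75.5 CPM with DMSO and 81.4, 81.0 and 82.1 CPM with the compound. Every compound library lay above every DMSO library there, as happened for 7.24% of all genes tested, but the difference was 0.091 ± 0.05 and was not called (adjusted p = 0.798). Its upper bound of 0.20 on the log2 scale excludes a rise of 1.5-fold. EP300 and CREBBP, which encode p300 and CBP, were at -0.006 ± 0.06 and -0.065 ± 0.05 (adjusted p of 0.991 and 0.848).

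The complexes around these enzymes were as tightly bounded. Of the 29 measured SAGA and ATAC subunits none was called, their median was -0.023, and the interval of all 29 lay within 1.5-fold. POLE4, a histone-fold subunit, was the member with the smallest p, at 0.20 ± 0.09 (unadjusted p = 0.0441, adjusted p = 0.78). The 12 other acetyltransferases had a median of -0.017 with all 12 intervals within 1.5-fold. The 18 deacetylases had a median of 0 with 16 within 1.5-fold, and the 25 bromodomain proteins a median of -0.002 with 24 within it. None of these 3 lists held a called gene. FKBP1A, which encodes the prolyl isomerase FKBP12 that the tag derives from, was 220.3, 222.8 and 218.7 CPM with DMSO and 178.3, 224.5 and 213.7 CPM with the compound. Compound libraries 1 and 3 lay below all DMSO libraries and compound library 2 above them, and the difference was not called (-0.12 ± 0.07, adjusted p = 0.803). The list of FKBP immunophilins, which holds FKBP1A, had no called gene among 13 measured (median 0.019).

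No gene that p53 activates was called for the compound without induction. Of the 54 listed targets 48 were measured, with a median of 0.048 and 35 estimates above 0, where 7671 of all 15101 genes lay above 0. In 9 every compound library lay above every DMSO library and in 1 below, against 7.24% and 5.64% of all genes. Against the DMSO mean the median target was at 0.075, 0.031 and 0.051 in compound libraries 1, 2 and 3. In the DMSO libraries it was at 0.015, 0.01 and -0.014, so the estimates leaned slightly upward. CDKN1A, which encodes the cell cycle inhibitor p21, was 91.3, 91.8 and 85.7 CPM with DMSO and 87.0, 92.6 and 97.9 CPM with the compound. These overlap, and the interval of -0.10 to 0.16 on the log2 scale excludes changes of 1.5-fold in either direction (0.029 ± 0.06, adjusted p = 0.947). MDM2, whose product marks p53 for degradation, was 69.1, 69.2 and 67.3 CPM with DMSO and 76.3, 70.1 and 69.3 CPM with the compound (0.053 ± 0.06, 95% interval -0.066 to 0.17, adjusted p = 0.884). Its groups did not overlap, but only just. The member with the smallest p was FDXR, a mitochondrial reductase, at 0.25 ± 0.11 (unadjusted p = 0.0307, adjusted p = 0.779). In all 42 of the 48 intervals lay within 1.5-fold and 44 within 2-fold. The 6 outside 1.5-fold, among them GDF15, BBC3 and GLS2, averaged at most 4.44 CPM with DMSO.

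To test whether the response differs with the state of the cells, the effect of the compound was set against its effect in induced cells, in 1 fit of 12 libraries. In a separate fit of the 6 induced libraries 52 of 15079 genes were called (0.345%), 51 of them higher with the compound (0.338%) and 1 lower (0.00663%), and the median log2 fold change of the 52 was 1.07. Of these 52, 37 could be tested without induction. None of the 37 was called (edgeR, 2 with an unadjusted p below 0.05), their median was 0.063, and every one of the 37 intervals ended short of the estimate in induced cells. For 31 of them the interval excluded a change of 2-fold and for 22 a change of 1.5-fold. The induced values chose these genes, so their induced size is a description only.

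The difference between states was called for 11 of 15814 genes (0.0696%), 10 of them with a lower (0.0632%) and 1 with a higher (0.00632%) effect without induction. The induced libraries enter this test too, and all 11 were among the 52. CDKN1A was 380.4, 332.4 and 343.1 CPM in induced DMSO libraries and 829.2, 805.7 and 859 CPM in induced compound libraries. Its groups are far apart there and overlap without induction, and the difference of effects was -1.17 ± 0.10 (adjusted p = 2.69e-05). PLTP, a phospholipid transfer protein, differed by -1.40 ± 0.12 (adjusted p = 2.69e-05), going from -0.095 ± 0.09 without to 1.31 ± 0.09 with induction. The oxidoreductase gene TP53I3 differed by -0.91 ± 0.12, the RNA-binding protein gene ZMAT3 by -0.87 ± 0.12, the actin regulator CYFIP2 by -0.79 ± 0.10 and the DNA polymerase gene POLH by -0.85 ± 0.12. ANGPTL4, a secreted inhibitor of lipoprotein lipase, was the gene with the opposite sign, at 1.32 ± 0.12 (adjusted p = 7.9e-05). It was 138, 139.6 and 164.5 CPM in induced DMSO libraries and 73.2, 64.9 and 66.5 CPM with the compound, but 39.8, 37.9 and 34.6 CPM in non-induced DMSO libraries and 46.0, 42.0 and 41.0 CPM with the compound. The non-induced difference of 0.17 ± 0.07 was not called (adjusted p = 0.779). The count of 11 was 18 without induced DMSO library 1, 24 without induced DMSO library 3 and 8 to 12 without any other library, and DESeq2 called 45.

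**Figure D3:**
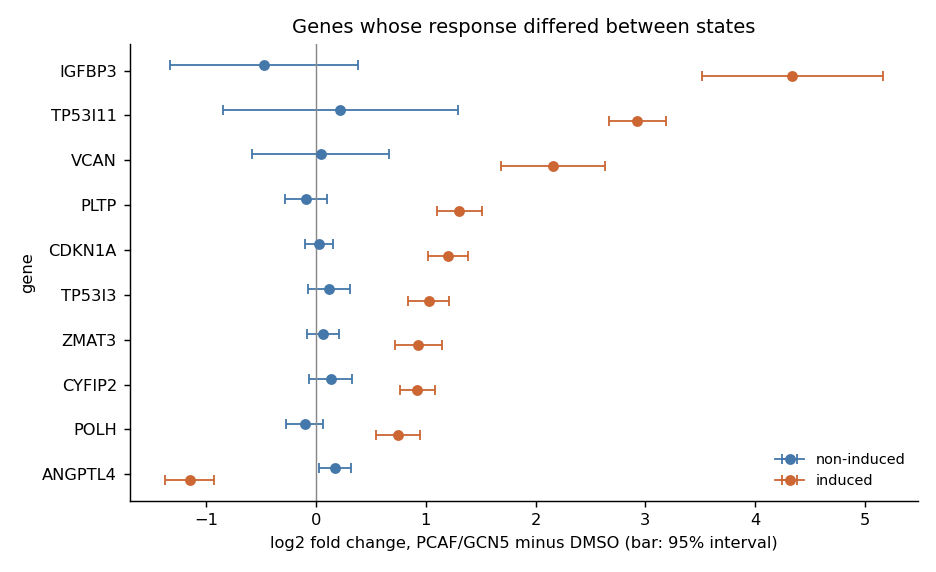
Log2 fold change of the PCAF/GCN5 compound against DMSO (x axis, bars are 95% intervals) in non-induced and induced cells for the 10 of 11 genes with a called difference between states that were tested in both (y axis). The non-induced estimate of CDKN1A is 0.029 and the induced one 1.20, and ANGPTL4 lies at 0.17 and -1.15.

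Most genes of cell division had estimates slightly below 0, without passing the test. Of 38 measured mitotic genes none was called, although 37 estimates lay below 0, 28 had an unadjusted p below 0.05 in that direction, against 3.48% of all genes, and 23 had every compound library below every DMSO library, against 5.64%. Their median was -0.15 where that of all genes was 0.002. Of 37 S phase and replication genes none was called, 33 estimates lay below 0, 18 had an unadjusted p below 0.05 and 14 did not overlap, with a median of -0.13. No member of either list had an unadjusted p below 0.05 in the other direction. Genes of 1 cell cycle phase move together, so these counts are not independent observations. In induced cells the medians for the same compound were -0.162 for the mitotic and -0.264 for the S phase list, also without a called gene. Whether the lists shifted alike in the induced and non-induced cells was not tested.

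MKI67, the proliferation antigen that coats mitotic chromosomes, was 483, 562.2 and 544.5 CPM with DMSO and 322.4, 469.6 and 430 CPM with the compound. All compound libraries were lower, the first by the most, and the log2 fold change was -0.39 ± 0.11 (adjusted p = 0.766). With the replicate block it was called, at -0.41 ± 0.06 (adjusted p = 0.00518, with 1.47e-09 to 1 over the alternatives). CDC20, an activator of the anaphase-promoting complex, averaged 209 ± 1.85 CPM with DMSO and 174.8 ± 19.1 CPM with the compound (SD, n = 3; -0.27 ± 0.07, adjusted p = 0.766). BUB1B, a spindle checkpoint kinase, was at -0.23 ± 0.06 (adjusted p = 0.766). In the replication list the helicase subunits MCM2 and MCM7 were at -0.24 ± 0.06 and -0.21 ± 0.05 and the licensing factor CDT1 at -0.25 ± 0.07, each with an adjusted p of 0.766 and no overlap between groups.

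The shift of the mitotic genes was present in each compound library but not to the same extent. Against the mean of the DMSO libraries the median mitotic gene was at -0.22, -0.079 and -0.15 in compound libraries 1, 2 and 3 on the log2 scale, and at -0.012, 0.018 and -0.009 in the DMSO libraries. For S phase and replication genes the values were -0.16, -0.038 and -0.13 against 0.008, 0.015 and -0.035, so compound library 2 lay near the DMSO range. Without compound library 1 the mitotic median was -0.12 with 36 of 39 estimates below 0 and 1 called, and the S phase median was -0.097 with 33 of 37 below 0 and none called. Leaving out any 1 of the 6 libraries left the mitotic median between -0.18 and -0.12 and the S phase median between -0.19 and -0.097. With the block and without compound library 1, 5 of 39 mitotic and 3 of 37 S phase genes were called, all lower. Of all 15406 genes tested in that fit, 47 were called lower. That fit was chosen after seeing the data and leaves 1 residual degree of freedom, so these calls are a description only. The intervals bound the size: all 37 S phase genes and 36 of 38 mitotic genes lay within 1.5-fold, the exceptions being MKI67 and the weakly counted PRC1, and all lay within 2-fold.

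**Figure D4:**
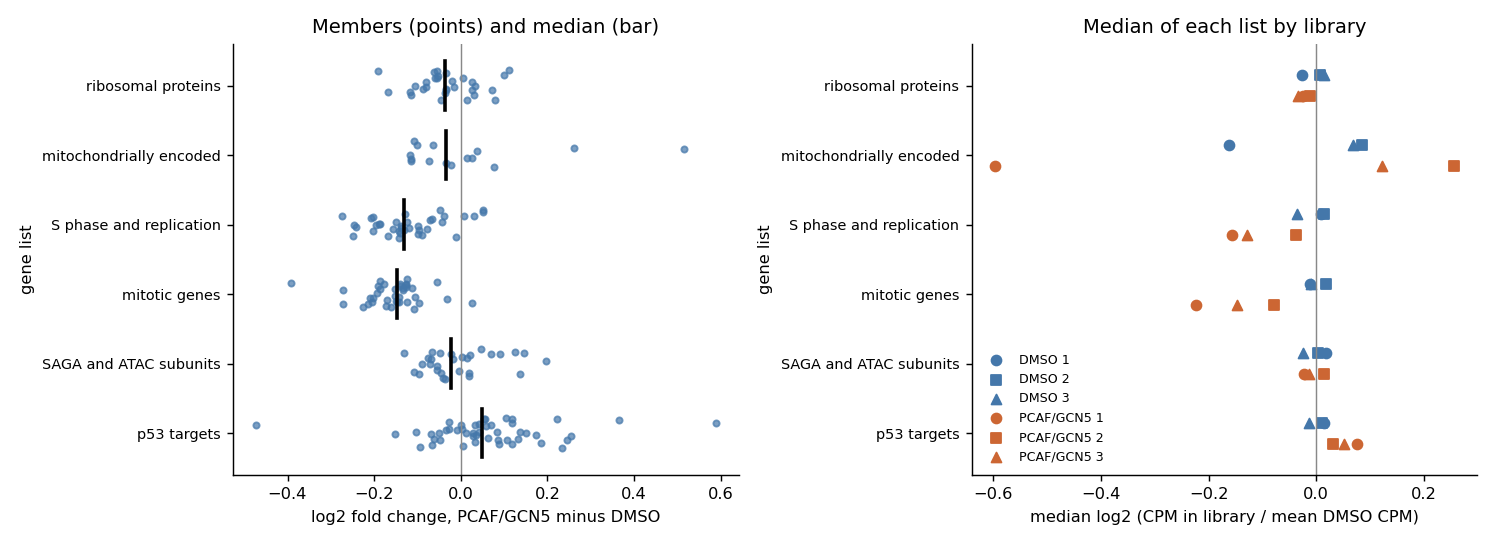
Left, log2 fold change of the PCAF/GCN5 compound against DMSO in non-induced cells (x axis) for the members of 6 gene lists (points) with their median (bar); right, the median of each list by library against the mean DMSO CPM. The medians of mitotic and of S phase genes lie at -0.15 and -0.13, and the mitochondrially encoded genes part compound library 1, at -0.60, from the other compound libraries.

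Mitochondrially encoded transcripts followed single libraries. No member of 15 was called and the median was -0.034, with the first compound library at -0.60, the second at 0.26 and the third at 0.12 against the DMSO mean. The first DMSO library, which has the same replicate number, was at -0.16. Without compound library 1, 5 of the 15 were called, all higher, where 9 of all 15406 genes tested were called higher, and the median was 0.17. The largest of these was MT-ATP8, an ATP synthase subunit, at 0.82 ± 0.16, and MT-ND4, a subunit of complex I, was at 0.53 ± 0.04. MT-ND4 was 1645, 1863 and 1760 CPM with DMSO and 1283, 2659 and 2418 CPM with the compound, so the libraries of 1 group lay on both sides of the other. The 28 nuclear-encoded respiratory genes had no call and a median of 0.041.

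The other lists held no called gene. Ribosomal proteins, a list of 30 that does not hold RPLP2, had a median of -0.035 and all 30 intervals within 1.5-fold. MYC and ribosome biogenesis genes stood at a median of -0.041 (30 measured), hypoxia and glycolysis genes at -0.043 (29), interferon genes at 0.082 (21), aryl hydrocarbon receptor targets at 0.084 (6) and histone cluster genes at 0.075 (12). The stress programs lay near 0: the ATF4 response at 0.003 (25 measured), NRF2 targets at 0.001 (18), the unfolded protein response at 0.042 (20) and heat shock genes at 0.015 (17). Sterol and fatty acid synthesis genes had a median of 0.014 over 29, of which 4 had an unadjusted p below 0.05, all higher. These included STARD4, a cholesterol carrier, at 0.26 ± 0.08 and INSIG1, the sterol-regulated anchor of SREBP, at 0.16 ± 0.06 (adjusted p = 0.779 for both). The bromodomain inhibitor response, a list of genes known to move when bromodomain readers are blocked, had a median of -0.014 over 13.

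The p300/CBP compound in the same non-induced cells shares the DMSO libraries with this comparison, so its values are given beside it. For it the test called 1478 of 14943 genes (9.89%), 512 higher (3.43%) and 966 lower (6.46%), beside the 3 called for the PCAF/GCN5 compound. The doses of both are not in the labels, so equal doses cannot be assumed. Compared directly, 165 of 15131 genes differed between the compounds (1.09%), 141 higher with the PCAF/GCN5 compound (0.932%) and 24 lower (0.159%). Genes of S phase and replication made up part of this, with 24 of 37 higher with the PCAF/GCN5 compound, none lower and a median of 0.47. Of the mitotic genes 9 of 38 were higher (median 0.25), and of 50 measured p53 targets none was called (median -0.051).

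LMNB1, a protein of the nuclear lamina, showed the smallest p of the direct comparison. It was 237.3, 221.6 and 218.2 CPM with the PCAF/GCN5 compound and 154, 152.1 and 135.6 CPM with the p300/CBP compound (0.62 ± 0.07, adjusted p = 0.00286). With DMSO it was 232.5, 240 and 218.4 CPM, a range that takes in 2 of the PCAF/GCN5 libraries. CLSPN, a checkpoint mediator at replication forks, was 117, 120.5 and 119.2 CPM with the PCAF/GCN5 compound, 92.6, 81.6 and 75.6 CPM with the p300/CBP compound and 121, 115.3 and 119.8 CPM with DMSO. It differed between the compounds by 0.51 ± 0.08 (adjusted p = 0.0125). SAP18 differed by 0.60 ± 0.09 (adjusted p = 0.0125) and RPLP2 by -0.34 ± 0.06 (adjusted p = 0.0201), with the same compound libraries as in the comparison with DMSO. The count of 165 rested on single libraries: it was 310, 1 and 19 without p300/CBP library 1, 2 or 3, and 287, 1 and 47 without PCAF/GCN5 library 1, 2 or 3. DESeq2 called 422 genes, 313 higher and 109 lower.

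The authors' deposited table for PCAF/GCN5 against DMSO gives an adjusted p for 4388 genes, of which 11 lie below 0.05, 3 higher and 8 lower. In the authors' deposited table RPLP2 is at -0.42 (adjusted p = 7.55e-08) and SAP18 at 0.49 (9.44e-05), followed by TMEM59 at 0.35 (0.000273). The authors' deposited table also lists TIMP1, an inhibitor of matrix metalloproteinases, as higher at 0.22. Its lower genes include the condensin subunit NCAPD2 at -0.20, HMGB2 at -0.26 and KNSTRN at -0.29 in the authors' deposited table. The settings of that fit are not given in the sources used here.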

How the data were processed

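RNA was sequenced from directional total RNA libraries, per the labels' protocols. The deposited tables hold raw read counts per gene, per the file headers, and StringTie and DESeq2 are named in the submitters' processing notes. The aligner, counting program, strand use and genome build are not given in the sources used here. Gene positions are as the deposited files give them. Starts and ends of SAP18 equal those of GENCODE 29 on GRCh38, and those of RPLP2 and BOLA2B differ from it at one end. The log2 fold changes and the p-values quoted as the authors' come from the deposited table of this comparison, made by the authors, with DESeq2 per the submitters' processing notes. Of 48 columns of per-sample values 18 were used. The others were 24 columns of scaled counts and 6 repeats of DMSO counts.

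Counts were fitted here with edgeR 4.0.16 in R 4.3.3, on the groups compared only, with TMM scaling, filterByExpr, the 2-sided quasi-likelihood F test and Benjamini-Hochberg adjustment over all genes tested. Called means an adjusted p below 0.05. Standard errors and 95% intervals came from the fitted weights and the moderated spread, and the intervals were not adjusted over genes. A floor is 3 counts per library and covers counting error only. Depth was 9056382 to 26620841 counts. DESeq2 1.42.0 was an alternative. The script was tested on simulated data. Medians by library used log2 of CPM with 0.1 added.

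Replicate number was a block in an alternative fit only, because the labels do not say what it marks. Deviations of same-numbered compound and DMSO libraries correlated at 0.368, 0.304 and 0.25. These values come from the counts that the block then fits, so they do not establish a pairing. For the compounds compared with each other the correlations were -0.275, -0.098 and -0.331, and for induced cells 0.041, 0.323 and 0.39. Between non-induced and induced DMSO libraries they were -0.391, 0.223 and -0.165. Between non-induced and induced libraries of the PCAF/GCN5 compound they were -0.302, 0.211 and -0.178. No pairing was assumed in any of these.

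Genes named were FKBP1A, the enzymes' genes, CDKN1A and MDM2, the called genes (at least 1 CPM in a group mean) by size, filled up to 15 per direction with the smallest p, the 3 smallest p of each list, the 10 smallest p of the difference between states and between compounds, and the 10 largest called effects in induced cells. Genes named outside this rule (RPLP1, RPLP0, PRC1, GDF15, BBC3, GLS2, CCNL2, ERH, ASPM, CDCA8, NCAPD2, VCAN and EEF1A1P6) were chosen after their values were seen. The comparison, members and lists were chosen with earlier results of these data known. Some genes that the rule selects are not reported here.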

Additional observations from a re-analysis of the deposited data

Results flagged for a closer look

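The effect of the PCAF/GCN5 compound differed between non-induced and induced cells for 11 genes, of which the 10 tested in both states are given here, by a test of the difference itself (edgeR interaction, adjusted p below 0.05). The differences, non-induced minus induced on the log2 scale, were -1.17 for CDKN1A, -1.40 for PLTP, 1.32 for ANGPTL4, -0.79 for CYFIP2, -0.87 for ZMAT3, -0.91 for TP53I3 and -0.85 for POLH. Among weakly counted genes they were -4.83 for IGFBP3, a binding protein of insulin-like growth factors, -2.69 for TP53I11 and -2.12 for the matrix proteoglycan VCAN. None of these 10 genes was called in non-induced cells.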

How the results depend on the processing

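The count of called genes for the compound against DMSO was 3 under upper-quartile and RLE scaling and 2 with at least 1 CPM in 3 libraries. It was 48 with no filter, 0 with all 6 groups in 1 fit, 5 with DESeq2 and 0 to 17 with 1 library left out. The replicate block gave 14, and 70 with compound library 1 also left out, the latter chosen after seeing the data. The share of genes within 2-fold was 57.4% with no filter and 81.9% to 85.3% with 1 library left out. The difference between states was called for 258 genes with no filter, 38 with all groups in 1 fit, 45 with DESeq2, 12 with the block and 8 to 24 with 1 library left out. The difference between compounds was called for 594, 212, 422, 46 and 1 to 310 in the same order. Same-numbered libraries did not all correlate above 0.1 in those 2 comparisons, so a pairing is still less established there. The block left SAP18, RPLP2 and BOLA2B called. No named gene called for the compound against DMSO changed sign, and signs in the other 2 comparisons were not checked. Over the genes named, 57 values of the comparison with DMSO gained and 17 lost a call under an alternative. Another 1768 did neither, which takes in genes not called to begin with and values without an adjusted p. Only the 3 genes called in the main fit could lose a call. SAP18 was called in 8 of 14 alternatives, RPLP2 in 9 of 14 and BOLA2B in 7 of 13. With 3 libraries a group, changes under 1.5-fold at or below 1 CPM were not detectable at this depth.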

Other observations

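EEF1A1P6, a processed pseudogene of the translation factor EEF1A1, had the largest estimate of any gene with a mean above 1 CPM over the 6 libraries, at 1.62 ± 0.58 (adjusted p = 0.779). It measured 2.88, 2.73 and 1.33 CPM with DMSO and 3.29, 17.4 and 2.47 CPM with the compound, so a single library carried the difference, and reads of a pseudogene may belong to its parent gene. Without compound library 1 it was called, at 1.98 ± 0.37 (adjusted p = 0.00444, edgeR), still with a single high library.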
